A study of Rattus norvegicus with 16 samples.

Results

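Transcripts of the urea cycle and of amino acid breakdown were followed in livers of male Sprague-Dawley rats at 21 days of age. The members are 41 listed genes, found on the arrays through the RefSeq accession of each probe. Of the 41, 38 were matched to a probe and 36 passed a filter on dim probes, out of 13146 transcripts tested in all. Uroc1, Gldc and Shmt1 were matched to no probe by accession, and probes named in other ways were not searched for them. Slc25a15, the ornithine carrier of mitochondria, had no array with liver signal well above background, and Csad, a step of taurine synthesis, had 1 of 16, so the 36 genes are not the whole list.

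All dams received corn oil during gestation and lactation, with or without test compounds in it, and no litter was cross-fostered. Dams of the 0.5M and M pups were dosed at 0.5 and 1.0 mg/kg/day with 1 mixture that joined PCBs, organochlorine pesticides (OCPs) and methyl mercury. Dams of AhR pups received agonists of the aryl hydrocarbon receptor (non-ortho PCBs, dioxins and furans) at 1.8 ng/kg/day in TCDD equivalents, and dams of C pups received the oil alone. Each group has 4 arrays, each made from the pooled liver RNA of 2 pups (8 pups a group). On every array the liver RNA carried Cy5 and a universal rat reference RNA from cell lines carried Cy3. All values below are log2 ratios of liver to that reference or differences between such ratios, and a difference of 1 is a doubling. Which pups shared a litter is not given, so the p-values measure the spread between these arrays.

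The urea cycle turns the ammonia released from amino acids into urea, mostly in hepatocytes near the portal vein. Carbamoyl phosphate synthetase (Cps1) and ornithine transcarbamylase (Otc) work in mitochondria, and argininosuccinate synthetase (Ass1), argininosuccinate lyase (Asl) and arginase (Arg1) in the cytosol. Aminotransferases and glutamate dehydrogenase feed nitrogen into the cycle, and separate routes break down histidine, tryptophan, tyrosine, lysine, the branched-chain amino acids and methionine, the last of which also supplies methyl groups.

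Replicates 1 and 2 of each group were on slide 1 and the other 2 on slide 2, and the model has a term for the slide. Of 30367 probes, 7082 on M 1 (the fewest) to 15686 on C 3 (the most) had liver signal well above background. Cyp1a1, the marker of the aryl hydrocarbon receptor, lay between 1.85 and 3.05 on the 8 arrays of 0.5M and M, between 0.60 and 1.12 in AhR and between -2.01 and -1.08 in C. Arrays 0.5M 4 and M 2 held skeletal muscle transcripts: all 6 measured muscle markers lay above all 14 other arrays on both, by a median of 4.95. On the same 2 arrays the median difference from the others was -0.23 over 7 hepatocyte markers and -0.10 over the 36 genes. The hepatocyte markers, albumin among them, were measured on every array and none passed the test between any exposed group and C.

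No gene of the list passed the test in M against C, the comparison that asks what the higher dose did. Of all transcripts 0.319% passed (34 higher, 0.259%, and 8 lower, 0.0609%, by limma at an adjusted p under 0.05). Of the 36 genes 31 lay below 0, where 50.6% of all transcripts did, with a median of -0.13 against -0.0019 over all transcripts. Many of these genes varied together between arrays (median pairwise correlation of residuals 0.25), so the count is not one of 36 independent observations. At an unadjusted p under 0.05 by limma 7 of the 36 were lower and none higher, where 5.61% of all transcripts were lower and 4.53% higher (10.1% either way). The 7 were Agxt, Glud1, Ass1, Got1, Cps1, Cbs and Asl. In whole liver, fewer cells of a kind and less RNA per cell cannot be told apart.

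The direction was less even by slide. Within slide 1, 21 of the 36 genes lay below 0 in M with a median of -0.041, and within slide 2, 34 of 36 with a median of -0.25. Without the 2 arrays with muscle transcripts 30 of 36 lay below 0 (median -0.176), and without M 2 alone the median was -0.173. Transcripts of muscle, pancreas or fat were high on 5 arrays (those 2, M 1, AhR 2 and C 2). Without these 5 arrays 33 of 36 genes lay below 0 (median -0.245). Leaving out M 4 moved the median to -0.059, with 26 of 36 below 0. The C arrays mattered too: 25 of 36 lay below 0 without C 3 (median -0.106) and 28 of 36 without C 4 (median -0.108).

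**Figure D1:**
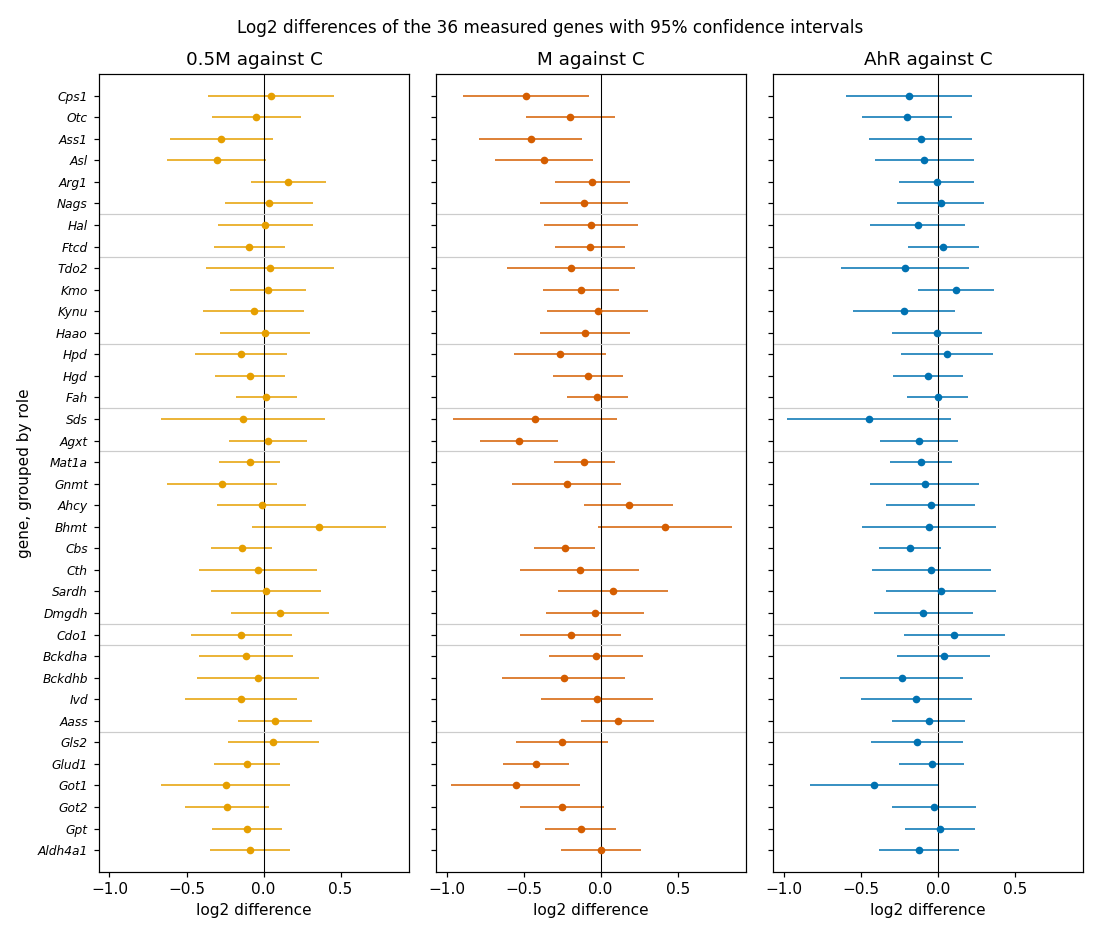
Log2 differences of the 36 measured genes from C in 0.5M, M and AhR (x axis, log2 units), 1 row per gene, grouped by role between the grey lines. Points are the model estimates and bars their 95% confidence intervals. In M, 31 of 36 points lie left of 0 and 7 intervals do not reach it, while in 0.5M and AhR every interval includes 0.

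Agxt, the alanine-glyoxylate aminotransferase that clears glyoxylate, had the smallest p of the list in M. It stood at 0.31, -0.23, 0.012 and -0.31 in 0.5M, at -0.52, -0.49, -0.47 and -0.97 in M, at -0.19, -0.15, -0.26 and -0.21 in AhR, and at -0.10, -0.017, -0.13 and -0.073 in C. All 4 M arrays lay below every array of the other groups. Its difference from C was -0.53 ± 0.12 (SE, n = 4 arrays a group, 95% interval -0.78 to -0.28), a level 1.44-fold lower in M, with an adjusted p of 0.0811 by limma over all transcripts. Within slide 1 the difference was -0.44 and within slide 2 -0.62. Left out in turn, only 0.5M 1 let Agxt pass (adjusted p = 0.044), and the others gave adjusted p-values of up to 0.298.

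Glud1, the glutamate dehydrogenase that releases ammonia from glutamate, was nearest to it. Its values were 0.93, 0.55, 0.83 and 0.55 in 0.5M, 0.32, 0.50, 0.37 and 0.42 in M, 0.77, 0.75, 0.79 and 0.82 in AhR, and 0.87, 0.86, 0.58 and 0.98 in C. Again the 4 M arrays lay below all 12 others, while C 3 sat apart from the other C arrays. M differed from C by -0.42 ± 0.10 (SE, 95% interval -0.63 to -0.21, adjusted p = 0.107 by limma), and by -0.46 on slide 1 and -0.38 on slide 2.

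The urea cycle enzymes lay below 0 in M in 6 of 6 measured, with a median of -0.28, and none passed. Cps1, which makes the first intermediate of the cycle, had 0.24, -0.54, -0.13 and -0.46 in 0.5M, -1.11, -0.24, -0.73 and -0.97 in M, -0.62, -0.12, -0.51 and -0.59 in AhR, and -0.54, -0.24, -0.089 and -0.23 in C. M 1, M 3 and M 4 lay below every C array and M 2, one of the arrays with muscle transcripts, lay among them. The difference between M and C was -0.49 ± 0.19 (SE, adjusted p = 0.392 by limma), -0.67 without M 2 and -0.35 without M 1.

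Ass1, which joins citrulline and aspartate, gave -0.36, -0.85, -1.01 and -0.96 in 0.5M, -0.93, -0.57, -1.20 and -1.20 in M, -0.63, -0.43, -0.83 and -0.64 in AhR, and -0.33, -0.88, -0.63 and -0.24 in C. The C arrays spread widely: C 2 and C 3 lay below M 2, and the other 3 M arrays lay below every C array. M differed from C by -0.46 ± 0.16 (SE, adjusted p = 0.294), with -0.14 on slide 1, -0.77 on slide 2 and -0.31 without C 4.

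Asl, which splits argininosuccinate, was at 0.29, -0.48, -0.31 and -0.31 in 0.5M, at -0.44, -0.26, -0.15 and -0.22 in M, at -0.005, -0.028, 0.015 and 0.077 in AhR, and at 0.12, -0.087, -0.12 and 0.49 in C. It was the third gene whose M arrays all lay below C, with C 4 well above the rest. Its difference was -0.37 ± 0.15 (SE, adjusted p = 0.41), and -0.24 without C 4. Agxt, Glud1 and Asl make 3 of 36 genes with M wholly below C, where 2.07% of all transcripts had this, and no gene of the list had M wholly above C (2.12% of all transcripts).

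The other urea cycle genes lay closer to C. Otc stood at -0.13, -0.52, -0.18 and -0.50 in 0.5M, -0.56, -0.19, -0.28 and -0.91 in M, -0.38, -0.37, -0.52 and -0.67 in AhR, and -0.42, -0.14, -0.27 and -0.32 in C. M overlapped with C on 2 arrays, and the difference was -0.20 ± 0.14 (SE, adjusted p = 0.683), but -0.063 without M 4.

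Arg1, which releases urea, had 0.20, 0.23, 0.33 and 0.17 in 0.5M, 0.22, 0.096, -0.15 and -0.097 in M, 0.21, -0.25, 0.11 and 0.19 in AhR, and 0.005, -0.069, 0.29 and 0.062 in C. The 0.5M arrays were the most alike and the groups overlapped throughout, with an M difference of -0.055 ± 0.12 (SE, 0.19 on slide 1 and -0.30 on slide 2). Nags, which makes the activator that Cps1 needs, had 0.04, -0.35, 0.21 and -0.16 in 0.5M, 0, -0.097, -0.21 and -0.52 in M, -0.24, -0.24, 0.098 and 0.07 in AhR, and -0.25, -0.11, 0.098 and -0.13 in C. These groups overlapped as well, and M differed from C by -0.11 ± 0.13 (SE). The difference of Nags turned by slide (0.13 on slide 1 and -0.35 on slide 2) and was 0.019 without M 4, and that of Arg1 was 0.019 without C 3, so the count of 6 of 6 rests in part on single arrays.

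**Figure D2:**
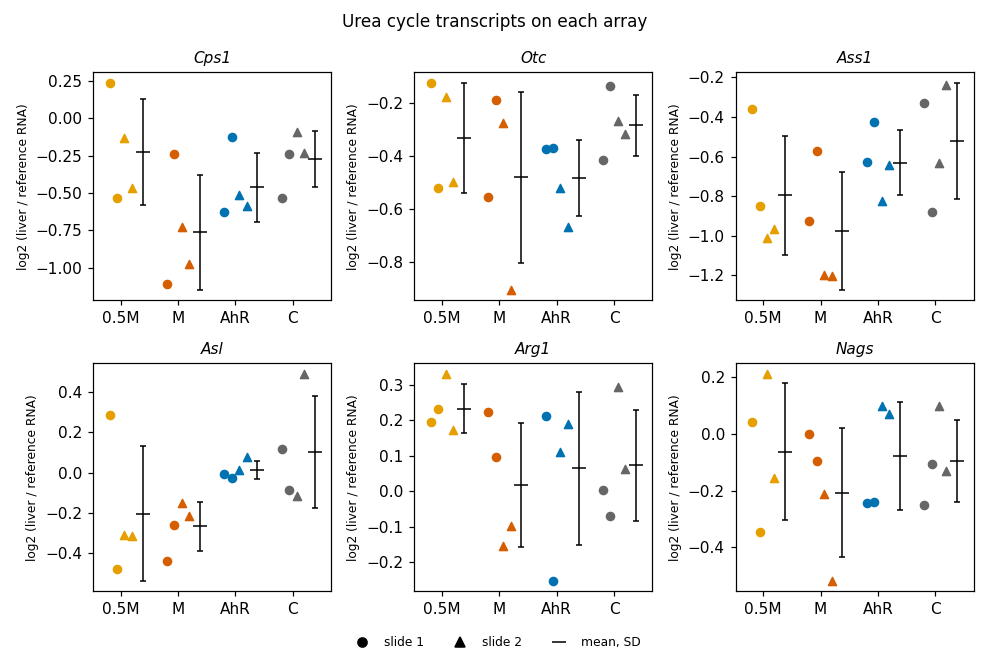
Log2 ratio of liver to reference RNA (y axis, 1 scale per panel) of 6 urea cycle transcripts on each of the 4 arrays in 0.5M, M, AhR and C (x axis). Circles are arrays of slide 1, triangles arrays of slide 2, and black bars the mean and SD of a group. The M arrays reach lowest for Cps1, Ass1, Otc and Nags, and for Asl all 4 lie below C.

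The promoters of the 3 genes with M wholly below C are shown with 2 motifs in capitals. GCGTG is the core bound by the aryl hydrocarbon receptor, and TTNNGNAA is a form of the element of the C/EBP factors, which are known to act on urea cycle genes. Each line is the 250 bases before the gene's start, 5′ to 3′, from RefSeq on build GRCr8.
Agxt promoter, chr9:101127008-101127257, strand +: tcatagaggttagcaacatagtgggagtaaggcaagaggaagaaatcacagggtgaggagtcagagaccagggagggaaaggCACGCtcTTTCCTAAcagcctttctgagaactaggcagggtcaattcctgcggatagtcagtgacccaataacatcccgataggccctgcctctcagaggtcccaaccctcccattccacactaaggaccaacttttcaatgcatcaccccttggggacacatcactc
Glud1 promoter, chr16:9646319-9646568, strand +: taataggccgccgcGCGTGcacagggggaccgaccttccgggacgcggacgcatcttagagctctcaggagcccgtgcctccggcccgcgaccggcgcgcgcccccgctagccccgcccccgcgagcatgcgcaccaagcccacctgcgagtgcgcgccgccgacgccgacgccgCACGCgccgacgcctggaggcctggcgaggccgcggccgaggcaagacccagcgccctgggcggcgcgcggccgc
Asl promoter, chr12:32295658-32295907, strand +: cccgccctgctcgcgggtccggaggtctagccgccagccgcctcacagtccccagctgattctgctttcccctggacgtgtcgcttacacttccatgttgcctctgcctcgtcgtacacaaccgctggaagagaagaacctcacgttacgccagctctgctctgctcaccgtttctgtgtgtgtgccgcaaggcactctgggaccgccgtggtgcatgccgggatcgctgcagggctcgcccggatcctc
Agxt held 1 match of each motif, Glud1 held 2 of GCGTG, and Asl held neither. Both strands were searched, and overlap between matches was not examined. A window was found for 34 of the 41 genes, and 35.3% of these held GCGTG, against 26.9% of all 27457 windows. For TTNNGNAA the shares were 29.4% and 37.0%. The 11 tested genes with GCGTG had a median difference of -0.22 in M and ran from -0.55 (Got1) to 0.42 (Bhmt). The 18 without it had a median of -0.12 and ran from -0.49 (Cps1) to 0.11 (Aass), and the split was not tested. For TTNNGNAA the medians were -0.084 with it (9 genes) and -0.21 without it (20 genes). A match is a run of letters and says nothing of binding.

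Aminotransferases and glutamate enzymes lay below 0 in M in 5 of 6. Got1, the cytosolic aspartate aminotransferase, was at 0.38, -0.35, -0.009 and 0.22 in 0.5M, -0.57, 0.21, -0.40 and -0.23 in M, 0.16, -0.17, -0.088 and -0.32 in AhR, and 0.58, -0.12, 0.17 and 0.59 in C. M 1, M 3 and M 4 lay below every C array, and M 2 lay among them. The difference of M from C was -0.55 ± 0.20 (SE, 95% interval -0.97 to -0.14, adjusted p = 0.314), the lowest estimate of the list.

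Got2, its mitochondrial partner, gave -0.37, -0.50, 0.19 and -0.19 in 0.5M, -0.31, -0.61, 0.036 and -0.038 in M, 0.078, -0.60, 0.36 and 0.16 in AhR, and -0.13, -0.20, 0.11 and 0.31 in C. Slide 1 arrays were low in every group but AhR 1, and M differed from C by -0.25 ± 0.13 (SE, adjusted p = 0.527). Gls2, the liver glutaminase, differed by -0.25 ± 0.14 (SE), Gpt, the alanine aminotransferase, by -0.13 ± 0.11, and Aldh4a1, of proline breakdown, by 0.003 ± 0.12.

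The methionine and methyl group enzymes were split, with 5 of 8 below 0 in M and a median of -0.072. Cbs, which commits homocysteine to cysteine, had 0.25, 0.18, 0.14 and -0.15 in 0.5M, 0.026, 0.068, -0.18 and 0.14 in M, 0.10, 0.06, 0.038 and 0.07 in AhR, and 0.36, 0.11, 0.17 and 0.35 in C. All 4 AhR arrays and 3 of 4 M arrays lay below every C array. Its differences from C were -0.23 ± 0.094 in M (SE, adjusted p = 0.397) and -0.18 ± 0.094 in AhR (adjusted p = 1).

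Bhmt, which remethylates homocysteine with betaine, ran the other way. It stood at 0.13, 0.57, 0.039 and 0.42 in 0.5M, 0.63, 0.43, 0.34 and -0.003 in M, 0.27, -0.17, -0.38 and -0.23 in AhR, and -0.20, -0.22, 0.62 and -0.48 in C. C 3 lay far above the other 3 C arrays and as high as M 1. The difference of M was 0.42 ± 0.21 (SE, 95% interval -0.017 to 0.85, adjusted p = 0.511), the highest of the list, and 0.69 without C 3 (adjusted p = 0.0624). Within slide 1 it was 0.74 and within slide 2 0.10.

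Gnmt, which uses up excess methyl groups, was at -0.14, -0.70, -0.89 and -1.10 in 0.5M, -0.26, -0.33, -0.87 and -1.18 in M, -0.30, -0.32, -0.69 and -0.78 in AhR, and -0.24, -0.75, -0.32 and -0.45 in C. The 0.5M and M arrays of slide 2 were the lowest. M differed from C by 0.20 on slide 1 and -0.64 on slide 2, and 0.5M by 0.075 and -0.61. Ahcy, which clears S-adenosylhomocysteine, stood at 0.18 ± 0.14 (SE) in M against C, and Mat1a, which makes S-adenosylmethionine, at -0.11 ± 0.093. Sardh and Dmgdh, which demethylate sarcosine and dimethylglycine, stood at 0.077 ± 0.17 and -0.038 ± 0.15, and Cth, which releases cysteine, at -0.14 ± 0.18.

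**Figure D3:**
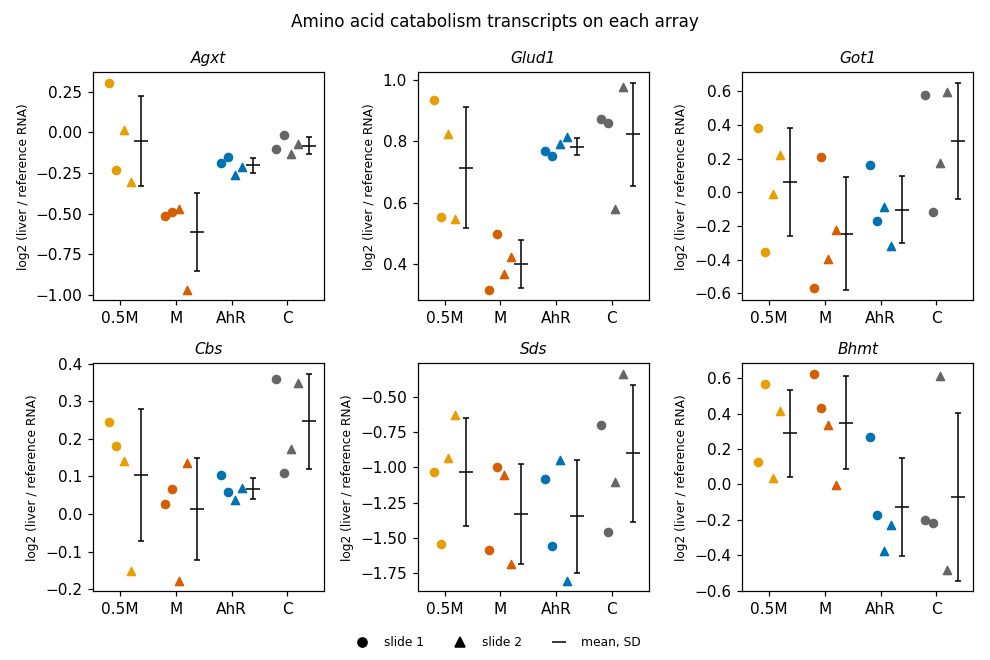
Log2 ratio of liver to reference RNA (y axis, 1 scale per panel) of 6 catabolic transcripts on each of the 4 arrays in 0.5M, M, AhR and C (x axis), drawn as circles for slide 1 and triangles for slide 2, with the mean and SD of each group. For Agxt and Glud1 the 4 M arrays lie below all others. Got1, Sds and Bhmt spread widely within groups.

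The breakdown routes of single amino acids showed small differences in M. Both histidine genes, Hal and Ftcd, lay at -0.062 and -0.068. The 4 tryptophan genes Tdo2, Kmo, Kynu and Haao, which run the kynurenine route, lay between -0.19 and -0.019, and the tyrosine genes Hpd, Hgd and Fah between -0.26 (Hpd) and -0.022 (Fah). Of the branched-chain and lysine genes, Bckdhb, a subunit of the branched-chain ketoacid dehydrogenase, stood at -0.24 ± 0.19 (SE), and its partner Bckdha, Ivd of leucine breakdown and Aass of lysine breakdown between -0.029 and 0.11. Cdo1, which oxidises cysteine on the way to taurine, stood at -0.20 ± 0.16 (SE).

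Sds, the serine dehydratase known to follow fasting and glucagon, varied most between arrays of a group. It stood at -1.03, -1.54, -0.93 and -0.63 in 0.5M, -1.59, -0.99, -1.05 and -1.68 in M, -1.08, -1.56, -0.95 and -1.80 in AhR, and -0.70, -1.46, -1.10 and -0.34 in C. The groups overlapped. Its residual SD was 0.413, against a median of 0.217 over the 36 genes and 0.149 over all transcripts, and its difference from C was -0.43 ± 0.25 in M (SE, -0.26 without C 4) and -0.45 ± 0.25 in AhR (-0.25 without AhR 4).

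The lower dose was set against the oil alone in 0.5M against C. No gene of the list passed (0.0152% of all transcripts did), and none of the 36 reached an unadjusted p under 0.05, where 6.53% of all transcripts did by limma (2.61% higher and 3.92% lower). Of the 36, 22 lay below 0 (51.2% of all transcripts), with a median of -0.055 against -0.0035 over all, and no gene had 0.5M wholly below or above C (1.67% and 1.38% of all transcripts). The genes with the smallest p were Asl (-0.30 ± 0.15, SE, adjusted p = 0.748), Got2 (-0.24 ± 0.13), Bhmt (0.36 ± 0.21), Ass1 (-0.28 ± 0.16) and Gnmt (-0.27 ± 0.17). Cps1 stood at 0.050 and Agxt at 0.026. Within slide 1, 13 of 36 lay below 0 and within slide 2, 30 of 36. The median rested on single arrays: it was -0.114 without 0.5M 1 (29 of 36 below 0), -0.001 without 0.5M 2 (18 of 36), -0.008 without 0.5M 4 (20 of 36), -0.096 without C 2 and -0.032 without C 4. Without 0.5M 4 and M 2 together it was -0.005 (18 of 36), and without the 5 arrays with other tissue -0.013. With median centring it was -0.112, against -0.033 over all transcripts, of which 61.5% lay below 0.

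AhR against C asks what the dioxin-like compounds did. None of the 36 genes passed (0.00761% of all transcripts did) and none reached an unadjusted p under 0.05, where 3.78% of all transcripts did by limma. Of the 36, 28 lay below 0 (49.9% of all transcripts), with a median of -0.074 against 0.00021 over all. Got1 (-0.41 ± 0.20, SE), Cbs, Sds, Otc (-0.20 ± 0.14) and Kynu (-0.22 ± 0.15) had the smallest p, each at an adjusted p of 1. Kynu, which cleaves kynurenine, was at -0.48, -1.12, -0.97 and -1.03 in 0.5M, -1.003, -0.75, -0.62 and -1.05 in M, -1.08, -0.83, -0.99 and -1.32 in AhR, and -1.16, -0.65, -0.73 and -0.81 in C. Its groups overlapped. Agxt and Cbs had all 4 AhR arrays below C, 2 of 36 genes where 1.02% of all transcripts had this. Within slide 1, 18 of 36 lay below 0 (median -0.004) and within slide 2, 29 of 36 (median -0.132). The median was -0.125 without C 2, -0.045 without C 3, -0.042 without C 4 and -0.121 without the 5 arrays with other tissue. With median centring it was -0.136, against -0.021 over all transcripts, of which 58.4% lay below 0. The 3 comparisons with C share the same 4 C arrays, so their directions are not independent of each other.

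Between exposed groups no gene of the list passed either. In M against 0.5M (0.0152% of all transcripts passed), Agxt stood at -0.56 ± 0.12 (SE, adjusted p = 0.27 by limma), Cps1 at -0.54 ± 0.19 and Glud1 at -0.31 ± 0.10, and M lay wholly below 0.5M for Agxt and Glud1 (1.4% of all transcripts lay wholly below and 1.39% wholly above). With Gls2 (-0.31 ± 0.14), these were the 4 of 36 genes lower at an unadjusted p under 0.05 by limma, where 2.84% of all transcripts were lower and 3.9% higher (6.75% either way). Of the 36, 25 lay below 0 (49.3% of all transcripts), with a median of -0.082, which was -0.019 without M 4, -0.034 without 0.5M 1, -0.054 on slide 1 alone, -0.138 without the 2 arrays with muscle transcripts and -0.191 without the 5 with other tissue. In M against AhR (0.266% of all transcripts passed), Glud1 stood at -0.38 ± 0.10 (SE, adjusted p = 0.18), Agxt at -0.41 ± 0.12 and Bhmt at 0.48 ± 0.21. With Hpd (-0.32 ± 0.14) and Ass1 (-0.34 ± 0.16), 4 of the 36 genes were lower and 1 higher at an unadjusted p under 0.05 by limma, where 5.52% of all transcripts were lower and 4.35% higher (9.87% either way), and 23 of 36 lay below 0 (51% of all transcripts). This lean was gone without M 4 (18 of 36, median 0) and on slide 1 alone (18 of 36, median -0.009), while the median was -0.116 on slide 2 alone and -0.10 without the 5 arrays with other tissue. M lay wholly below AhR for Agxt, Glud1 and Asl, 3 of 36 genes where 2.24% of all transcripts had this. In 0.5M against AhR (0.0228% of all transcripts passed) none of the 36 reached an unadjusted p under 0.05 by limma (9.05% of all transcripts did, 3.09% higher and 5.96% lower), and Bhmt had the smallest p (0.42 ± 0.21, SE, adjusted p = 0.568). The moderated F-test over the 4 groups called none of the 36 genes (0.175% of all transcripts), with Agxt (adjusted p = 0.175) and Glud1 (adjusted p = 0.276) nearest.

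The precision bounds these statements. The SE of a difference between groups ran from 0.093 to 0.25 over the 36 genes, with a median of 0.14. No 95% interval in M against C reached below -0.97 or above 0.85.

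**Figure D4:**
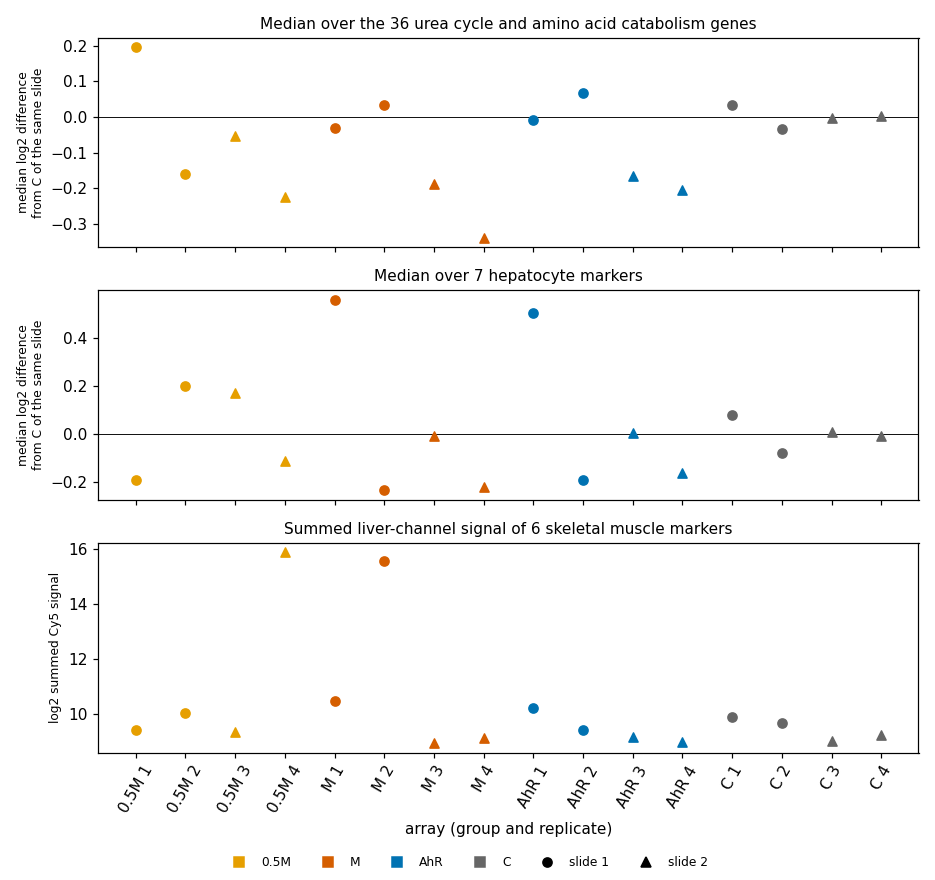
Per array (x axis): the median over the 36 genes and over 7 hepatocyte markers, each as log2 difference from the mean of the 2 C arrays on the same slide, and the log2 summed Cy5 signal of 6 muscle markers (y axes). C arrays lie near 0 in the upper panels by construction. M 4 is lowest for the 36 genes (-0.34) and 0.5M 1 highest (0.20), and 0.5M 4 and M 2 stand out for muscle.

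By array, the median over the 36 genes relative to C of the same slide was 0.20, -0.16, -0.052 and -0.22 in 0.5M, -0.032, 0.035, -0.19 and -0.34 in M, and -0.009, 0.067, -0.17 and -0.21 in AhR. All 6 exposed arrays of slide 2 lay below 0, and those of slide 1 lay on both sides. The hepatocyte markers did not follow the same order: their median was 0.56 on M 1 and 0.51 on AhR 1, the 2 arrays with the fewest probes well above background, and between -0.24 and 0.20 on the other exposed arrays. The part of other tissue and of signal strength in the differences of the 36 genes was not tested beyond the values given here.

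Many of the 36 genes varied together between arrays after the group and slide means were taken out. Across 16 arrays the median pairwise correlation of these residuals was 0.25 among the 36 genes and 0 among all 13146 transcripts, given as a description, as the arrays share dissection, labelling and slide. The pairs that went together most closely were Cps1 with Gls2 (0.85), Tdo2 with Aass (0.82), Gnmt with Ahcy (0.81), Agxt with Dmgdh (0.81) and Asl with Cdo1 (0.81). Bhmt had a median correlation of -0.05 with the other 35 genes and ran opposite to Glud1 (-0.81). Ftcd and Cth (0.01 each) and Arg1 (0.09) also had low median correlations with the others.

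In the reference RNA each of the 36 genes was well above background on all 4 C arrays. The mean ratio of C liver to reference ran from -1.17 for Gpt to 0.82 for Glud1, with 8 of 36 genes above 0 (51.1% of all transcripts) and a median of -0.30 (0.01 over all). These are ratios after intensity-dependent normalization, and a low ratio does not show a low level in liver.

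Further genes of amino acid breakdown were followed in the same way. Of 53 listed, 46 were measured and none passed in any comparison with C, with medians of -0.037 in 0.5M, -0.056 in M and -0.025 in AhR. Prodh2, of hydroxyproline breakdown, was alone among the 46 in having 4 of 4 M arrays below C (2.07% of all transcripts had this). It also had the smallest p in M (-0.34 ± 0.12, SE, adjusted p = 0.294 by limma). Agxt2, a second glyoxylate aminotransferase, had it in 0.5M (-0.34 ± 0.13, adjusted p = 0.704), and Oat, the ornithine aminotransferase of hepatocytes near the central vein, in AhR (-0.44 ± 0.18, adjusted p = 1). Tat, the tyrosine aminotransferase known to answer glucocorticoids, stood at -0.28 ± 0.14 in M (adjusted p = 0.5).

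Amino acid carriers (14 of 16 measured) had none called and a median of -0.053 in M. Slc6a13, a carrier of taurine and GABA, stood at -0.34 ± 0.11 (SE, adjusted p = 0.232), and Slc7a5, a carrier of large neutral amino acids, at -0.24 ± 0.084 (adjusted p = 0.293). Known regulators of these pathways (14 of 15 measured) had none called either, with a median of -0.015 in M, and Ppara, a regulator of fasting metabolism, was at 0.37 ± 0.12 in AhR (adjusted p = 1, 4 of 4 arrays above C, where 0.981% of all transcripts had this). Glucocorticoid and cAMP targets (6 of 8 measured) had none called, and the kinase gene Sgk1 had the smallest p in each comparison with C (0.24 ± 0.13 in 0.5M, -0.24 ± 0.13 in M and 0.35 ± 0.13 in AhR, SE).

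Among markers of other cells and zones, pericentral genes had 1 of 8 called in M, Cyp1a2, a target of the aryl hydrocarbon receptor (1.76 ± 0.17, SE, adjusted p = 3.6e-05), and a median of -0.057. The glutamine synthetase Glul, which takes up the ammonia left by the urea cycle, stood at -0.034 ± 0.12. Medians in M were 0.027 over 8 Kupffer cell markers, -0.053 over 4 endothelial, 0.006 over 4 cholangiocyte, -0.13 over 3 erythroid, -0.12 over 4 fat, 0.46 over 4 exocrine pancreas, 0.57 over 7 stellate cell and fibroblast and 1.37 over 6 skeletal muscle markers, none of them with a member called. Single arrays carried the last 3 of these. By array, the stellate cell and fibroblast median relative to C of the same slide was -0.15, 1.97, 0.13 and 0.053 in M 1 to M 4, highest on the array with muscle transcripts, and the pancreas median was 1.05, -0.018, 0.16 and 0.19, highest on M 1. Muscle was carried by M 2 (4.54, against -0.038 to 0.78 on the other M arrays). The summed muscle signal (log2 Cy5) ran from 9.35 to 15.89 in 0.5M, 8.94 to 15.59 in M, 8.97 to 10.21 in AhR and 9.01 to 9.88 in C.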

How the data were processed

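Gene expression was measured on 16 Agilent rat arrays with 2 colours, 4 for each of 4 groups, and groups were taken from the sample titles. Per the file headers, the scans were read by Agilent Feature Extraction 10.7.3.1, and the deposited files hold for 62976 spots the median signal and median background of each channel as scanner intensity. The LogRatio that the software itself computed is a log10 value, per the file headers. The deposited marks of spot quality (unit other) are flags. A table of values deposited by the authors was set against the scan files and behaved as log2 ratios of Cy5 to Cy3 (correlation 0.965 to 0.991 per array, column medians -0.009 to 0.012).

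Signals were corrected with normexp (offset 50) and loess in limma 3.58.1 under R 4.3.3 with the data.table package (version 1.17.8), control spots at weight 0, spots marked as outliers left out and the rest averaged per probe. The filter kept probes whose Cy5 signal exceeded background clearly on 4 or more arrays (14524 of 30367, 12 of them dropped for missing values). RefSeq accessions gave symbols to 18004 probes (12363 had none), and the brightest probe of a gene was used. Differences were tested with lmFit and eBayes on all 16 arrays with group and slide, two-sided, adjusted by Benjamini-Hochberg over 13146 transcripts within each of 6 comparisons. The fit was checked on simulated data. The number of arrays limits the precision. No dyes were swapped, which leaves any dye effect in the ratios to the reference, and a constant one cancels in differences between groups.

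The 41 genes, the further gene lists and the alternatives were chosen with earlier results of these data known. Values are given in every array for the urea cycle genes and, per comparison with C, for the 5 listed genes with the smallest p. Other listed genes are given by counts and ranges, at most 3 per role in full, or by smallest p in the further lists. Shown in addition to this rule are the remaining listed genes of each role, Tat and Glul, which were chosen after their values were seen. Alternatives changed the background correction, the normalization, the source of the values, the filter, the choice of probe, the slide term and the arrays.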

Additional observations from a re-analysis of the deposited data

Results flagged for a closer look

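In 4 of 144 sets of 4 arrays (36 genes in 4 groups, 2.78%) a single array stood apart by Dixon's test, where chance gives about 5%. Agxt was lowest on M 4 (-0.97, the next M array at -0.52), and without M 4 its difference from C was -0.42 (adjusted p = 0.235 by limma). Hal was highest on AhR 1 (-0.62, the next at -1.45), Gpt was highest on M 1 (-1.06, the next at -1.38), and Mat1a was highest on C 1 (0.50, the next at 0.18). Of these arrays M 1 and AhR 1 had the fewest probes well above background, and whether that bears on the values was not tested.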

How the results depend on the processing

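No listed gene passed in any of the 6 comparisons or in the F-test under the 14 settings tried beside single arrays left out. Leaving out 1 array at a time gave 0 to 1 listed genes called in M against C (Agxt, without 0.5M 1). Agxt and Glud1 lay below 0 in M against C under every setting and with every single array left out. So did Cps1, Otc, Ass1, Asl, Sds, Cbs, Got1 and Got2. Of the other genes shown in every array, Arg1, Nags, Kynu and Gnmt changed sign in some of these fits. Bhmt lay above 0 in all of them. Median centring in place of loess moved the median of the listed genes to -0.401 in M against C, -0.303 in M against 0.5M and -0.282 in M against AhR. The medians of all transcripts moved to -0.088, -0.054 and -0.07 in the same order, with 72.2%, 66% and 69.9% below 0. The cause was not tested.

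Counts over all transcripts moved more. For M against C, 42 became 1 with median centring, 20 with the scanner's own ratios (18 higher), 4 on slide 1 alone, 7 on slide 2 alone and 67 with array weights (49 higher and 18 lower), and 22 to 53 with 1 array left out. For M against AhR, 35 became 0 with median centring, 19 with the scanner's ratios, 0 on slide 1, 13 on slide 2, 64 with array weights and 19 without the 5 arrays with other tissue, and 10 to 35 with 1 array left out. For the F-test, 23 became 0 with median centring, 15 with the scanner's ratios, 1 on slide 1, 7 on slide 2 and 15 without the 5 arrays, and 11 to 30 with 1 array left out. For M against 0.5M, 2 became 0 with median centring, 1 when probes had to be well above background on all 16 arrays, 0 on slide 1, 4 on slide 2, 4 with array weights and 4 without the 5 arrays, and 2 to 4 with 1 array left out. For 0.5M against C, 2 became 0 with median centring and 1 on slide 1, and for AhR against C, 1 became 0 on both. For 0.5M against AhR, 3 became 0 with median centring, with the scanner's ratios and on slide 1, and 0 to 4 with 1 array left out. Fewer arrays were fitted on single slides, and the other causes were not tested.

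Same-numbered arrays share a number and a slide, and after group and slide means were removed their deviations correlated between -0.41 and 0.19. With only group means removed the range was -0.23 to 0.46, and over 0.1 were 3 of 6 pairs for replicate 1, 3 of 6 for 2, 6 of 6 for 3 and 4 of 6 for 4. Since not every pair exceeded 0.1, they were not treated as pairs. With the replicate number as a block the counts were 41 for M against C, 7 for M against 0.5M and 5 for 0.5M against AhR, and no listed gene passed. With 4 arrays a group the SE of a difference had a median of 0.14, which limits what could pass.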
